A study of Mus musculus with 6 samples.

Results

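Ccl21b, Ccl21c and Gm13304, the 3 probed copies of the mouse chemokine gene Ccl21, had log2 values between 12.98 and 13.27 in every APP/PS1 brain and between 8.47 and 9.40 in every wild-type (WT) brain. The probes were chosen by the RefSeq transcript each one is named for (NM_011335, NM_023052 and NM_001193666). All 3 are among the 48436 probes of the value table and the 59729 probe names not flagged as controls on the array. Total RNA came from the brains of male mice labelled C57BL/6 and aged 9 months, 3 WT and 3 APP/PS1, and was read in 1 colour on an array built mainly for long non-coding transcripts. APP/PS1 mice carry transgenes for the amyloid precursor protein and presenilin 1 and form amyloid plaques; the promoter and founder line of the transgenes are not given in the sources used here, nor is the dissected part of the brain. No probe could be named for 44 marker genes of neurons, glia, vessels, meninges, choroid plexus and immune cells, so the tissue label was not checked against them.

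CCL21 is a secreted chemokine that, with CCL19, binds the receptor CCR7 and guides dendritic cells, naive T cells and other CCR7-bearing cells toward lymphatic vessels and through lymph nodes. Its basic tail holds it on heparan sulfate at the surface of the cells that make it. The mouse genome holds several near-identical copies of the gene: Ccl21a encodes the serine form made by lymphoid stroma, and Ccl21b and Ccl21c encode the leucine form known from lymphatic vessels outside the lymphoid organs. In the central nervous system the chemokine has been described in injured neurons, from which it can act on microglia. The RefSeq gene table (GRCm38.p6) lists 6 genes on chromosome 4 that bear the Ccl21 name or an older synonym of it, and 3 of them had a probe. Gm13304 carries Ccl21b and Ccl21c among its synonyms there. Ccl21a, Ccl21d and Gm10591 had no probe that could be named.

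The start regions are shown so that a reader can compare the listed windows, which do not give the likeness of the copies at the probes. RefSeq promoter windows, running from 250 bases before to 50 after a gene's start, were found for 5 of the 6 genes. They include Gm13304 and Ccl21b but not Ccl21c. Capitals in the first pair of windows mark the bases that differ between Gm13304 (GRCm38.p6, chr4:42114537-42114836, plus strand) and Ccl21a (chr4:42773942-42774241, minus strand). Capitals in the Ccl21b window (chr4:42172870-42173169, plus strand) mark a GGGCGG motif.
Gm13304: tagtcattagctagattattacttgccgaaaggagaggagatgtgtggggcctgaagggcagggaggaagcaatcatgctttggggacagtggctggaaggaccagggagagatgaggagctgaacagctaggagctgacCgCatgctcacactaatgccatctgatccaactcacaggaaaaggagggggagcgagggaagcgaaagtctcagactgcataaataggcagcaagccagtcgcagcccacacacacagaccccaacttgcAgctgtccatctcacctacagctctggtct
Ccl21a: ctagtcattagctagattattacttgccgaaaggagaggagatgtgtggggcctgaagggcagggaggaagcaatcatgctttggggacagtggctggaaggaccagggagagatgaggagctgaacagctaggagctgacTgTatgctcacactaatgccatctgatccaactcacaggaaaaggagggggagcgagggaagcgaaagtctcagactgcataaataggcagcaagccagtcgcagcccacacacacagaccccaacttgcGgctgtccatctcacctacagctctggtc
Ccl21b: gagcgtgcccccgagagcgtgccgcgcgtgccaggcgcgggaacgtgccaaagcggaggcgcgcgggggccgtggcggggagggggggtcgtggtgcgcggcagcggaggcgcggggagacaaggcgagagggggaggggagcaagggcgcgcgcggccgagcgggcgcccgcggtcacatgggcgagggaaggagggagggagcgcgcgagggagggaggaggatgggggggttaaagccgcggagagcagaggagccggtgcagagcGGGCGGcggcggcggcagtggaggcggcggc

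Across 299 aligned bases the Gm13304 and Ccl21a windows differed at 3, which read C141T, C143T and A271G when positions are counted from 1 at the 5′ end of the Gm13304 window and the Gm13304 base is given first. Ccl21d differed from Gm13304 only by C143T in 300 bases, and Gm10591 by none. The window listed for Ccl21b is of another kind, with 78.7% G and C against 53.7% in Gm13304 and a median of 52.7% over 32851 promoter windows, and only 98 of 298 aligned bases matched Gm13304. RefSeq gives Ccl21b 2 transcripts, and the window lies at the start of the whole gene, which need not be where the probed transcript begins. Both strands of the windows were searched for 4 motifs. GGGCGG, present in 35.7% of all windows, occurred once in Ccl21b and in no other window. TATAAA (13.6% of all windows), CCAAT (37.4%) and the NF-kB motif (4.51%) were in none of the 5 windows. A match or its lack describes these letters in these windows and nothing more.

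WT replicates 2 and 3 were nearly identical. Over 24212 bright probes their scatter was 0.0536 (log2), against 0.0828 to 0.0959 for the other replicate pairs. Scatter is the SD of the central 95% of differences between 2 samples, divided by the square root of 2. The 20 repeated spots of 15 other genes had a median SD of 0.0682 (range 0.0178 to 0.374) in the scanner signals, without that trimming. The scatter of WT replicates 2 and 3 was below that median, though not below every gene's, but the 2 measures are unlike. This pair of WT replicates was counted as 1 sample. Group sizes were thus n = 2 (WT) and n = 3 (APP/PS1), and the labels call the replicates biological. Scanner signals were used for 5 arrays, all but WT replicate 3. The 2 scanned WT arrays shared 1 slide and the 3 APP/PS1 arrays another, and the slides were scanned separately, so slide, scan and genotype cannot be told apart. The APP/PS1 arrays also had more probes well above background, 70.2% to 78.5% against 68.0% and 69.1%, and the part of this in the values below was not tested. So few arrays limit the precision of all values, and in RNA from whole tissue more cells of a type and more RNA per cell cannot be told apart.

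Ccl21b, one of the leucine-form genes, had log2 values of 8.49, 8.73 and 8.81 in WT replicates 1, 2 and 3 and of 12.99, 13.09 and 12.98 in the APP/PS1 replicates. The groups did not overlap: the lowest APP/PS1 sample lay 4.17 above the highest WT sample. The mean was 8.63 ± 0.198 (SD, n = 2) in WT and 13.02 ± 0.0608 (SD, n = 3) in APP/PS1, a log2 difference of 4.39 ± 0.114 (SE) or 21-fold. On the scanned arrays the background-subtracted signal of its spot was 313 and 373 in WT against 9091, 10286 and 9280 in APP/PS1, a ratio of means of 27.8 before any scaling between arrays.

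Ccl21c, the other leucine-form gene, read 9.40, 9.39 and 9.31 in WT and 13.26, 13.27 and 13.26 in APP/PS1. It was the tightest of the copies, with all APP/PS1 samples within 0.01 and all WT samples within 0.09. Its means were 9.38 ± 0.0354 (SD, n = 2) and 13.26 ± 0.00577 (SD, n = 3), a log2 difference of 3.89 ± 0.0191 (SE) or 14.8-fold. Table values carry 2 decimals, so an SD this small is at the limit of rounding. Its spot gave 591 and 595 in WT and 10928, 11502 and 11265 in APP/PS1, a ratio of 18.9.

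Gm13304 showed the widest separation. Its log2 values were 8.47, 8.57 and 8.54 in WT and 13.08, 13.09 and 13.19 in APP/PS1, with 4.51 between the nearest samples of the groups. The means of 8.51 ± 0.0601 (SD, n = 2) and 13.12 ± 0.0608 (SD, n = 3) differ by 4.61 ± 0.0553 (SE) on the log2 scale, or 24.4-fold. The spot signals were 308 and 332 in WT against 9730, 10278 and 10711 in APP/PS1, a ratio of 32.0.

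**Figure D1:**
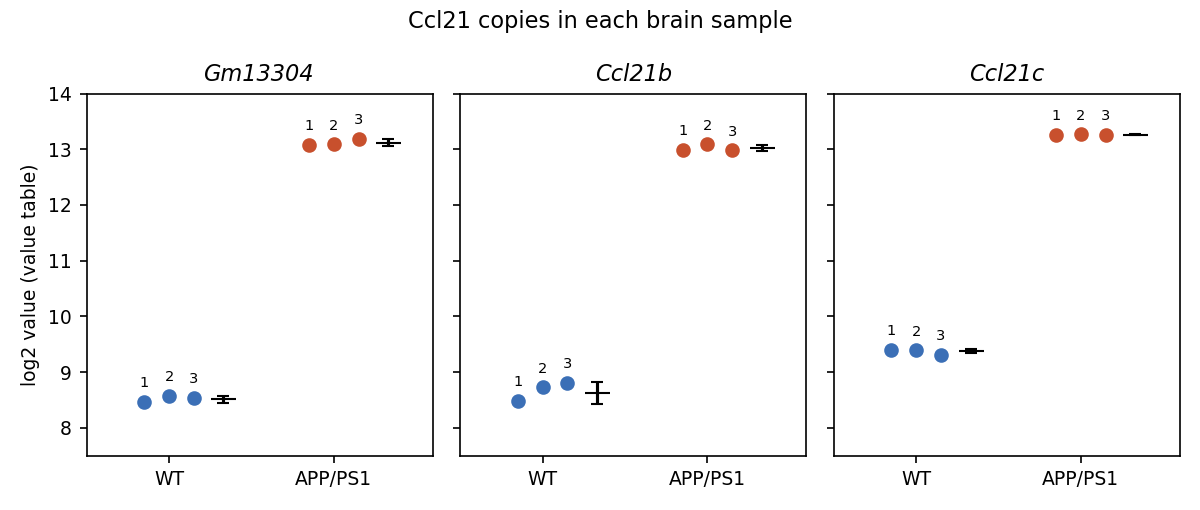
Log2 value of each Ccl21 copy in the value table (vertical axis) for the 3 WT (blue) and 3 APP/PS1 (orange) brains, numbered by replicate, with the mean and SD beside each group (WT replicates 2 and 3 counted once). Every APP/PS1 point lies above every WT point, by 3.86 or more, and replicates of a group differ by 0.32 at most.

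These 3 genes were picked for their rise in this same comparison, so the differences are a description with no test. For orientation, 25.8% of all 48436 probes had every APP/PS1 sample above every WT sample, and limma called 30.1% of them different at an adjusted p of 0.05, 14.2% as higher and 15.9% as lower in APP/PS1. The count of calls changed with the samples used. Leaving out APP/PS1 replicate 1, 2 or 3 lowered it from 14593 to 9139, 7420 or 7663. Leaving out WT replicate 2 or 3, which keeps 2 samples against 3, gave 14380 or 14184. The fit without WT replicate 1 keeps only 1 WT sample and is not set beside these. Whether the lower counts came from the sample left out or from the smaller number of samples was not tested. Nothing is read from the copies' place in these shares.

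The copies were measured well inside the range of the scanner. Each had 1 spot per array, well above background on all 5 arrays and saturated on none. Local background medians were 27 to 34 in both genotypes, while median spot signals ran from 353.5 to 695.5 in WT and from 8879.5 to 11987 in APP/PS1. The error that the scanner software attached to each spot was at most 10.1% of its signal. The 3 spots lie far apart on the array, in rows 70, 235 and 352. Of the spots within 5 rows and columns of Ccl21b, Ccl21c and Gm13304, 78, 87 and 91 were well above background on at least 2 arrays, and their median log2 changes were -0.13, -0.16 and 0.14. Among them 2, 4 and 8 rose by 2-fold or more, with largest changes of 2.45, 3.67 and 2.83. The part of spot position in the copies' values was not tested.

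Within each genotype the pooled SD was 0.125 for Ccl21b, above the median of 0.0779 over the 24212 bright probes (those above the table's median level), and 0.0209 for Ccl21c and 0.0606 for Gm13304, below it. WT replicates 2 and 3 differed by 0.08 at both Ccl21b and Ccl21c and by 0.03 at Gm13304. Ccl21b varied most, through WT replicate 1: without that sample its log2 difference was 4.25.

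The size of the rise differed somewhat between the copies. Gm13304 rose more than Ccl21c by 0.72 ± 0.07 (log2, SE) and Ccl21b more than Ccl21c by 0.50 ± 0.13, while Gm13304 and Ccl21b differed by 0.22 ± 0.11. In the scanner signals the same differences were 0.76, 0.56 and 0.20. Ccl21c had the highest mean in both genotypes. The means of Gm13304, Ccl21b and Ccl21c were 8.51, 8.63 and 9.38 in WT and 13.12, 13.02 and 13.26 in APP/PS1. Its smaller rise thus went with a higher WT level. The order Gm13304, Ccl21b, Ccl21c held in 13 of 13 processing alternatives, with a gap of 0.66 to 0.85 between the outer copies. The alternatives share samples, so this is no measure of the spread between animals. Because the copies are near-identical and the probe letters were not used here, signal from any copy, including those with no probe of their own, could reach each probe, and the values are not levels of separate genes.

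**Figure D2:**
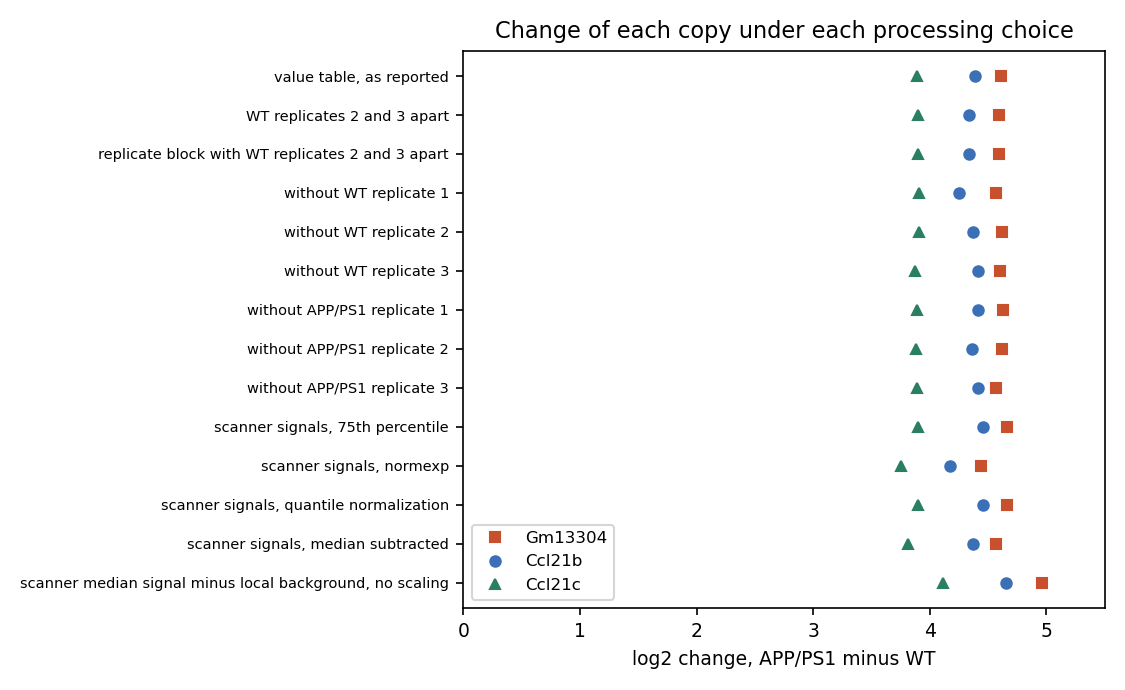
Log2 change of Gm13304 (squares), Ccl21b (circles) and Ccl21c (triangles), APP/PS1 minus WT (horizontal axis), for the value table as reported and for each alternative setting or omitted sample (vertical axis). All points lie between 3.75 and 4.96, and the copies keep their order in every setting.

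Among all probes the rise of the copies was large but not the largest. By size of rise in the value table Gm13304, Ccl21b and Ccl21c stood at places 53, 63 and 94 of 48436, and at places 58, 67 and 104 of the 45630 probes tested in the scanner signals. The 94 probes that rose at least as much as Ccl21c make up 0.194% of the table. They include 86 with the array maker's transcript names and 3 lincRNA exon probes, and the only 3 with a gene symbol are the copies. One of the 94 was ASMM9PARTA032461, a probe with only a manufacturer's name, singled out after its values were seen. It read 9.15, 9.22 and 9.09 in WT and 13.34, 13.67 and 13.38 in APP/PS1, a 19.8-fold difference. The files used here do not pair it with a gene.

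**Figure D3:**
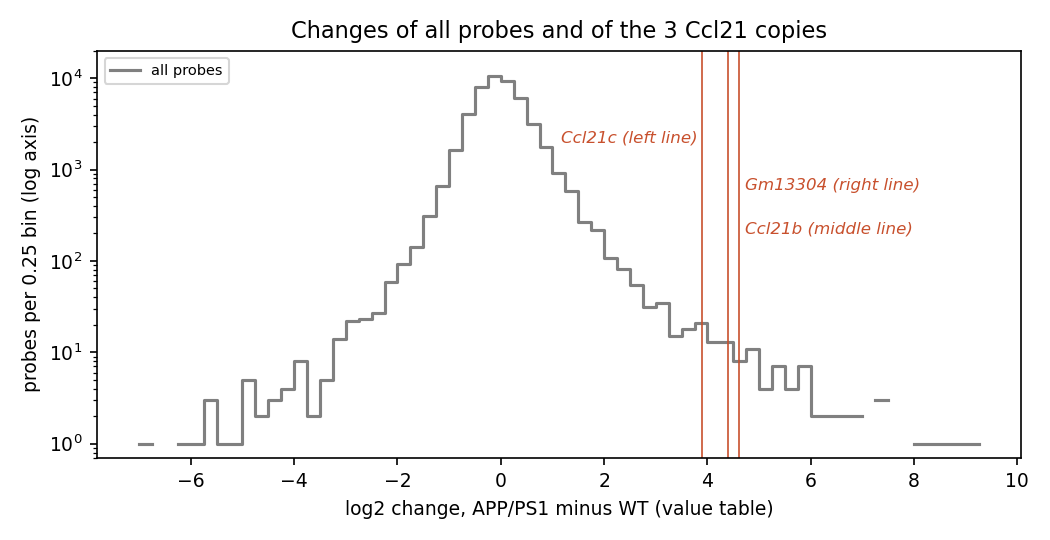
Number of probes (log axis) by log2 change, APP/PS1 minus WT, in bins of 0.25, for all 48436 probes (grey line). Vertical lines mark the 3 copies, at 3.89, 4.39 and 4.61, in the upper tail that holds 94 probes from Ccl21c on.

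Profiles were also compared over the 5 samples, as log2 values minus the WT mean. The distance (root of the summed squares) from the mean profile of the copies was 0.22 for Ccl21b, 0.55 for Gm13304 and 0.71 for Ccl21c. Another 24 probes lay within 0.71, and none of them had a gene symbol. Among the 71 other probes with a symbol, the nearest were Ccl28 at 2.06, B020031M17Rik at 4.13, Ssty2 at 4.17, the kinase gene Nim1k at 4.31 and Btbd35f4 at 5.76. At least Ccl28 and B020031M17Rik lie in the same interval of a chromosome other than that of the copies. The 5 are therefore not all matches from separate places, and where the others lie was not examined here. Neither Ssty2 nor Btbd35f4 rose clear of background on the scanned WT arrays, so no fold is given for them. None of these 5 genes was as near to that mean profile as the copies, which define it.

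The receptor side of the pathway could not be followed. Of 63 mouse chemokine and chemokine receptor genes, 3 had a probe, and these were Ccl21b, Ccl21c and Ccl28; none was Ccl19, Ccr7 or the scavenger receptor gene Ackr4. None of 19 genes of lymphoid stroma and lymphotoxin signalling had one. Ccl28, which encodes a mucosal chemokine that binds CCR10 and CCR3, was the single chemokine outside the Ccl21 family. It read 6.42, 6.29 and 6.33 in WT and 9.51, 9.46 and 9.45 in APP/PS1, with no overlap. It rose by 3.11 ± 0.07 (log2, SE), or 8.62-fold (limma adjusted p = 0.000428 over all probes). In the scanner signals it rose by 3.20, and by 2.15 under the normexp background correction. The median log2 change of all probes moved less, from 0.0386 to -0.223. The copies, brighter in WT than Ccl28, also moved less: Ccl21b from 4.46 to 4.17, Ccl21c from 3.90 to 3.75 and Gm13304 from 4.66 to 4.44. The cause was not tested.

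Genes lying near the copies in the chromosome 4 gene order did not share a rise of that size. Gm13305, 2 places before Ccl21b, read 12.65, 12.82 and 12.83 in WT and 12.95, 12.88 and 13.04 in APP/PS1. The groups nearly touch, and its log2 difference of 0.22 ± 0.09 (SE) did not pass the threshold (limma adjusted p = 0.144). Gm21953, 5 places after Ccl21b, fell by 0.53 ± 0.09 (limma adjusted p = 0.0191), from 10.62, 10.79 and 10.70 to 10.16, 10.05 and 10.25. Fam205a2, a member of a repeated gene family 14 places after Ccl21b, rose by 0.52 ± 0.09 or 1.44-fold (limma adjusted p = 0.0187), from 11.38, 11.53 and 11.41 to 12.03, 11.83 and 11.98. Without WT replicate 1 only 1 WT sample was left, so the differences alone are given, -0.59 for Gm21953 and 0.48 for Fam205a2. Nothing is said of their calls in that fit. Both genes lost their call without APP/PS1 replicate 1 (limma adjusted p = 0.0571 and 0.0525), at -0.53 and 0.48. Gm21953 also lost it without APP/PS1 replicate 2 (0.0554), at -0.48, and Fam205a2 without APP/PS1 replicate 3 (0.0652), at 0.50. The differences thus stayed close to those of all samples, in fits that rest on fewer samples.

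Ccl21c is listed apart from the other copies, in a stretch assigned to chromosome 4 whose coordinates restart. The gene listed nearest to it with a probe was Dhrsx, which encodes an enzyme of the dehydrogenase and reductase family, 22 places away and not on the same stretch. Dhrsx rose by 0.35 ± 0.08 or 1.28-fold (limma adjusted p = 0.0317), from 10.39, 10.53 and 10.54 in WT to 10.80, 10.79 and 10.85 in APP/PS1. The call was lost without each APP/PS1 replicate (limma adjusted p 0.0783 to 0.0934), at differences of 0.33 to 0.36 in fits with fewer samples. Without WT replicate 1, which left 1 WT sample, the difference of Dhrsx was 0.28, and nothing is said of its call there. Of the 4 probed genes within 50 places of a copy, then, 2 rose, 1 fell and 1 did not pass, beside 14.2% of all probes called higher and 15.9% called lower, and all 4 differences were smaller than those of the copies. Subtracting each array's median from the scanner signals left Fam205a2 and Dhrsx at 0.41 and 0.29, neither past the threshold. 

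**Figure D4:**
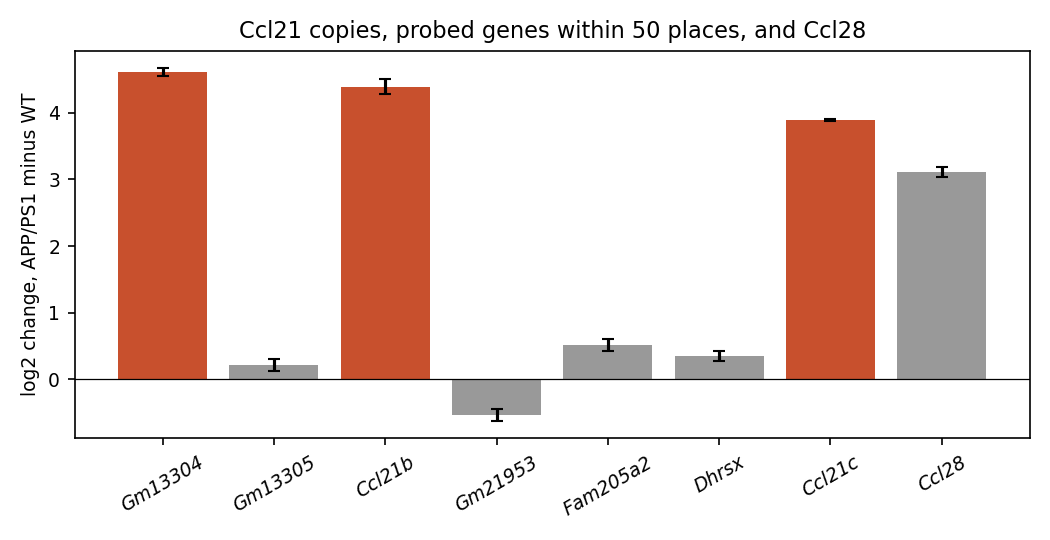
Log2 change, APP/PS1 minus WT, in the value table (bars, with SE) for the 3 Ccl21 copies (orange) and, in grey, Ccl28 and the 4 probed genes within 50 places in the gene list, of which Dhrsx lies on another stretch than Ccl21c; the SE of the copies is from their own spread and that of the others from limma. These 4 lie between -0.53 and 0.52, Ccl28 at 3.11 and the copies at 3.89 to 4.61.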

How the data were processed

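The deposited value table holds log2 values with a median of 7.06 in each of its 6 columns; per the submitters' processing notes Agilent Feature Extraction 11.0.1.1 was used, and no source used here gives the later steps. Each scanned array correlated with its column at 0.999645 or more. The deposited scanner files give intensity per spot, with a processed signal from which the software had removed background, per the file headers (array build mm9). Per the labels' protocols, RNA was depleted of rRNA and labelled with Cy3 by random priming.

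Table rows were tied to probes by spot number and to RefSeq symbols by transcript (116 probes, 112 genes). limma 3.58.1 (R 4.3.3; lmFit, eBayes, two-sided, Benjamini-Hochberg over all probes, threshold 0.05) compared 2 with 3 samples, and the script was tested on simulated data. Scanner signals were log2, minus each array's 75th percentile, for probes well above background on at least 2 arrays; 1200 spots named as negative controls and outlier spots were left out.

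Named genes are the copies, all probed members of the chemokine and lymphoid lists, all probed genes within 50 places of a copy, and the 5 symbols of nearest profile. Members, lists and the averaging of WT replicates 2 and 3 were chosen with earlier results of these data known; the spots around the copies, the motifs and the unscaled signals were added later.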

Additional observations from a re-analysis of the deposited data

How the results depend on the processing

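None of 39 alternative values for the copies changed sign. With normexp (offset 50) Ccl21b, Ccl21c and Gm13304 changed by 4.17, 3.75 and 4.44 (log2); with median spot signal minus local background and no scaling, an alternative chosen after seeing the data, by 4.65, 4.11 and 4.96; and median subtraction gave 3.81 for Ccl21c. Leaving out 1 sample gave 4.25 to 4.41, 3.87 to 3.91 and 4.57 to 4.63. The count of 14593 called probes became 3226 when an unadjusted p of 0.05 was paired with a 2-fold minimum and 5725 to 14380 without 1 sample. In the scanner signals 14903 became 7844 with normexp and 7644 to 10474 without 1 sample, falling by over 1.5 times without WT replicate 1 (8687) or 2 (8934) and APP/PS1 replicate 2 (7644) or 3 (7888). Where 1 WT sample was left, the spread came from APP/PS1 alone and the lone sample is taken to vary as they do. The cause was not tested.

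Equal replicate numbers did not pair the samples (correlations of deviations 0.0505, -0.0775 and 0.0115). With the replicate block, and WT replicates 2 and 3 apart, 15417 probes were called against 20262 without the block, and the copies changed by 4.34, 3.90 and 4.59. With normexp, Ssty2 and Btbd35f4 stood at -0.30 and -0.17 (limma adjusted p = 0.365 and 0.61), near the median of -0.223 over all probes. Nim1k lost its call there, at 0.54. Gm13305 passed only without scaling, at 0.49 (adjusted p = 0.0124; 0.0124 to 0.449 over its alternatives).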
